A study of Mus musculus with 2931 samples.

Results

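Late Car4- capillaries were single endothelial cells of the distal mouse lung that the authors' annotation placed in a capillary class without high Car4, and 622 of the 2931 cells of the series carried this label. At postnatal day 21 (P21) the label was given to 533 of 707 cells, 268 from the female mouse and 265 from the male mouse. The other 89 cells came from younger mice. The members were taken by the label alone, and Gpihbp1, Plvap, Aplnr and Cyp4b1 were used as markers to describe it. The label was drawn from the expression of these cells, so the marker levels are no independent check of it.

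Lung capillaries hold 2 main endothelial types. Capillary cells with high Car4, also called aerocytes, are large, thin cells that take part in gas exchange and respond to VEGF, while the Car4- type, also called general capillary cells, lines the rest of the mesh, carries the apelin receptor and serves as a source of new capillary cells. Gpihbp1 binds lipoprotein lipase on the capillary wall, Plvap forms the diaphragms of endothelial vesicles, Aplnr is the receptor for apelin, and Cyp4b1 is a cytochrome P450 enzyme abundant in lung.

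The series held 10 mice, 1 female and 1 male for each of 5 groups: the embryonic stage E18.5, the postnatal days P1, P7 and P21 (all 4 in normal air), and a P7 group kept in hyperoxia. Strain, genetic changes and the oxygen level of the hyperoxia group were not given in the sources used here. Cells were sorted into plates through gates named CD31 (an endothelial surface protein), mesench and CD45 (a leukocyte surface protein), and cDNA of each cell was cut with the Tn5 transposase and sequenced without molecular identifiers. At P21 the label was held by 217 CD31-gate, 50 mesench-gate and 1 CD45-gate cells of the female mouse, and by 182, 82 and 1 of the male mouse.

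The mouse was taken as the replicate, so every P21 value is given for 2 mice, and a mean ± SD is over n = 2. Levels are CPM (reads of a gene per 1000000 reads), from the reads summed over the cells of a class in a mouse, and a CPM of a long and a short gene is not compared. Late Car4- cells held between 50689 and 2762315 reads, with a median of 457303. Xist had a read in 212 of 268 female and 1 of 265 male P21 Late Car4- cells, and at least 1 of 4 Y-linked genes had one in 14 female and 134 male cells. No 2 cells of the series had identical counts. The runs differed between gates and between the 2 P21 mice, so sex, mouse and run cannot be told apart in any difference between the female and the male mouse.

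Gpihbp1, Plvap and Aplnr set Late Car4- cells apart from Car4+ capillaries at P21, and Cyp4b1 did not. The gene for Gpihbp1 (chromosome 15, 75596628 to 75599481, GRCm38) stood at 2713 CPM in Late Car4- cells of the female and 2755 CPM of the male mouse (2734 ± 29.8, SD, n = 2), and at 271 and 288 CPM in Car4+ capillaries. Plvap (chromosome 8, 71497765 to 71511752) stood at 2553 and 1922 CPM in Late Car4- cells against 158 and 8.94 CPM in Car4+ cells. Aplnr (chromosome 2, 85136225 to 85139923) stood at 385 and 399 CPM against 17.3 and 0.169 CPM. For these 3 genes both mice of the one class lay above both mice of the other.

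Cyp4b1 (chromosome 4, 115624725 to 115647723) went against its use as a marker of this class. It stood at 1363 and 1972 CPM in Late Car4- cells and at 4874 and 8306 CPM in Car4+ capillaries, so it was higher in the Car4+ class in both mice. In venous cells it stood at 434 and 1034 CPM. Gpihbp1 had a read in 94.8% of female and 86.0% of male Late Car4- cells, Plvap in 89.6% and 76.6%, Cyp4b1 in 81.3% and 75.5%, and Aplnr in 72.4% and 50.2%.

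Car4 itself, the membrane carbonic anhydrase that names the 2 classes, was not at 0 in Late Car4- cells. Its level was 382 CPM in the female and 703 CPM in the male mouse, and 39.2% and 36.6% of the cells had a read. Car4+ capillaries stood at 6077 and 9079 CPM, with a read in 100% and 98.7% of cells. With every cell thinned to 50000 reads, the Late Car4- shares were 36.2% and 34.3%. The 17 venous cells of P21 held 0 Car4 reads.

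**Figure D1:**
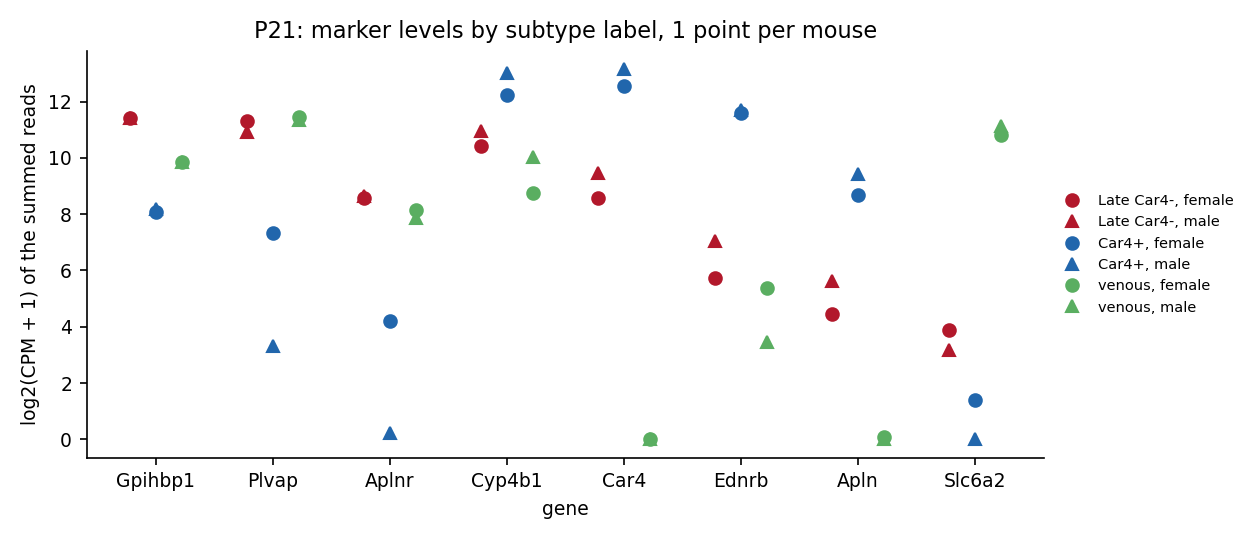
Levels at P21 of the 4 markers and of Car4, Ednrb, Apln and Slc6a2 as log2(CPM + 1) of summed reads (y axis), by gene (x axis), with 1 point per mouse for Late Car4-, Car4+ and venous cells. Gpihbp1, Plvap and Aplnr are higher in Late Car4- than in Car4+ cells of both mice, Cyp4b1 is lower, and Slc6a2 is high in venous cells alone among these 3 classes.

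The Early Car4- label was rare at P21, with 4 female and 3 male cells. Their Gpihbp1 stood at 6299 and 926 CPM, on both sides of the Late Car4- level, and their Aplnr at 385 and 801 CPM. At these numbers of cells the 2 Car4- labels could not be compared further at P21.

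Marker lists of other lung cells were summed in P21 Late Car4- cells. The 10 pan-endothelial genes summed to 14152 and 10769 CPM, with none of them at 0. The 10 leukocyte genes summed to 25.8 and 26.5 CPM, the 10 mesenchymal genes to 27.0 and 44.3 CPM, the 10 epithelial genes to 123 and 215 CPM, and the 14 proliferation genes to 45.8 and 66.2 CPM. Lists of other endothelial classes were higher: the 8 lymphatic genes summed to 1024 and 934 CPM, the 12 venous genes to 426 and 759 CPM, the 12 arterial genes to 3182 and 2369 CPM and the 16 Car4+ capillary genes to 3806 and 5084 CPM. In these lists S100a9 was at 0 in the female mouse, and Krt8 and Ccnb2 were at 0 in the male mouse, and Ccl21a, which marks lymphatic cells, was at 0 in the female mouse. Sftpc, the surfactant gene of alveolar epithelium, stood at 46.1 and 171 CPM in Late Car4- and at 82.5 and 51.4 CPM in Car4+ cells.

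Late Car4- cells made up most CD31-gate endothelial cells at P21 and few before. Their share was 76.95% in the female (217 of 282 cells, 95% Clopper-Pearson interval 71.6 to 81.7%) and 76.5% in the male mouse (182 of 238, 70.6 to 81.7%). In females it was 4.05% at E18.5, 6.67% at P1 and 12.8% at P7. In males it was 0.862% at P1 and 0.5% at P7, and at E18.5 none of 292 cells had the label, which allows a share of up to 1.03% (3 cells) or 1.26% (upper Clopper-Pearson bound). Under hyperoxia at P7 it was 0.755% in the female and 2.36% in the male mouse. These intervals and limits cover counting error alone, and the name of the label refers to age, so no test was made.

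Because the label was itself drawn from the expression of these cells, the comparison with the other P21 classes is a description with no test. A gene was counted where its CPM differed at least 4-fold in the same direction in both mice, if the higher class reached 50 CPM on average and at least 25% of its cells had a read in each mouse. Against Car4+ capillaries 65 of 2670 genes were higher in Late Car4- cells (2.43%) and 73 were lower (2.73%). The count of 138 rests on both mice: with the male mouse alone 259 genes passed the same limits, and with the female mouse alone 273.

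The gene that led the higher side was Cxcl12, a chemokine that guides leukocytes and arterial growth. It stood at 966 and 716 CPM in Late Car4- cells against 3.91 and 5.02 CPM in Car4+ cells, at least 143-fold in each mouse. Wfdc1, which encodes a secreted protein with a protease-inhibitor domain, followed with 756 and 617 CPM against 10.8 and 2.03 CPM, and Slc6a6, the taurine transporter, with 291 CPM in each mouse against 6.48 and 0.676 CPM. In each of these 3 genes the Car4+ cells of both mice lay far below the Late Car4- cells.

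Kit, a receptor tyrosine kinase, and its ligand split between the classes. Kit stood at 818 and 1040 CPM in Late Car4- and at 35.9 and 0.207 CPM in Car4+ cells, and 87.3% and 72.1% of Late Car4- cells had a read. Kitl, which encodes the ligand, stood at 276 and 268 CPM in Late Car4- and at 1330 and 1026 CPM in Car4+ cells, a difference that missed the 4-fold limit in the male mouse. The apelin pair was divided the same way: Aplnr was high in Late Car4- cells, and the ligand gene Apln stood there at 20.7 and 48.8 CPM against 411 and 683 CPM in Car4+ cells. The endothelin pair went the same way round with the roles exchanged. Edn1, the vasoconstrictor peptide, stood at 116 and 135 CPM in Late Car4- against 7.23 and 0.0188 CPM in Car4+ cells, and its receptor Ednrb at 52.7 and 131 CPM against 3112 and 3307 CPM.

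Arterial genes were higher in Late Car4- than in Car4+ cells for 5 of the 12 listed, Gja4, Efnb2, Hey1, Sox17 and Cxcl12, against 2.43% of all genes, and lower for 0. The median log2 ratio of the 12 was 3.02 in the female and 3.92 in the male mouse, against 0.12 and 0.16 over 6697 genes with a mean of at least 20 CPM. Gja4, a gap junction protein of arterial endothelium, stood at 704 and 379 CPM against 29.6 and 7.42 CPM. Sox17, a transcription factor of arterial identity, stood at 315 and 205 CPM against 36.3 and 8.21 CPM, and Hey1, a Notch target, at 249 and 230 CPM against 15.5 CPM in the female Car4+ cells and 0 reads in the male ones. Gja5, the gene most often used to define large arteries, was read at 12.5 and 12.7 CPM in Late Car4- cells.

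Of 20 genes for fatty acid and lipoprotein handling, Gpihbp1, itself a marker of the class, and Lpl were higher and 0 were lower, against 2.43% and 2.73% of all genes. Lpl, the lipase that Gpihbp1 holds at the vessel wall, stood at 306 and 223 CPM in Late Car4- cells, at 23 CPM in the female Car4+ cells and at 0 reads in the male ones. Cd36, the fatty acid carrier, was abundant in both classes, with 2949 and 3273 CPM in Late Car4- and 1692 and 3617 CPM in Car4+ cells, and its order differed between the mice.

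Growth factor receptors fell on both sides. Kdr, the main VEGF receptor, stood at 443 and 474 CPM in Late Car4- against 2292 and 2234 CPM in Car4+ cells, and Vegfa, its ligand, at 67.7 and 49.3 CPM against 6.18 and 0.583 CPM. Tek, the angiopoietin receptor, stood at 903 and 628 CPM against 154 and 85.2 CPM, and Ptprb, a phosphatase that acts on it, at 2558 and 1853 CPM against 219 and 77.2 CPM. Bmp6, a ligand of the bone morphogenetic protein family, stood at 221 and 193 CPM against 33.9 and 15.7 CPM. Flt1, the decoy VEGF receptor, differed little, with 532 and 390 CPM against 429 and 266 CPM.

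The transcription factors past the limit were Foxp1 and Sox17 on the higher side and Tbx2 and Meox1 on the lower side, out of 22 listed, against 2.43% and 2.73% of all genes. Foxp1 stood at 1100 and 727 CPM in Late Car4- against 220 and 141 CPM in Car4+ cells. Tbx2 stood at 14.2 and 16.8 CPM against 409 and 212 CPM, and Meox1 at 21.4 and 18.0 CPM against 321 and 237 CPM.

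Genes of cell adhesion and matrix stood on both sides. Itga6, the laminin-binding integrin chain, stood at 414 and 393 CPM in Late Car4- against 19.5 and 1.86 CPM in Car4+ cells. Hmcn1, a large extracellular matrix protein, stood at 523 and 455 CPM against 21.7 and 3.34 CPM, and Eln, elastin, at 179 and 89.1 CPM against 8.23 and 1.24 CPM. Iigp1, an interferon-inducible GTPase, stood at 198 and 383 CPM against 8.01 and 27.3 CPM. Of the 14 listed interferon-stimulated genes 0 passed the limit in either direction, near the 2.43% and 2.73% of all genes. Their median log2 ratio was 0.74 in the female and 1.18 in the male mouse, against 0.12 and 0.16 over 6697 genes. Fam198b, Ctsc and Edn1 completed the first 15 genes on this side together with Gja4, Kit, Aplnr, Plvap and Hey1.

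On the lower side, 12 of 16 listed Car4+ markers passed the limit. That list was drawn from genes known for this class, so the count describes the label and supports nothing further. The lowest relative level was that of Fndc1, with 0.0573 and 0.428 CPM in Late Car4- cells (11 and 52 reads) against 136 and 111 CPM in Car4+ cells, at least 259-fold in each mouse. Sirpa, the receptor that binds CD47, stood at 0.875 and 10.9 CPM against 306 and 315 CPM. Cdkn2b, an inhibitor of the cell cycle, stood at 13.6 and 4.52 CPM against 234 and 352 CPM, and Itgb5, an integrin chain, at 14.6 and 6.01 CPM against 312 and 429 CPM. Rgs6, Lmntd1, Krt80, Pcdhac2, Frrs1, Fibin, Ccdc184, Egflam, Slc12a2, Ednrb and Apln made up the rest of the first 15, each at least 14-fold lower in both mice.

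**Figure D2:**
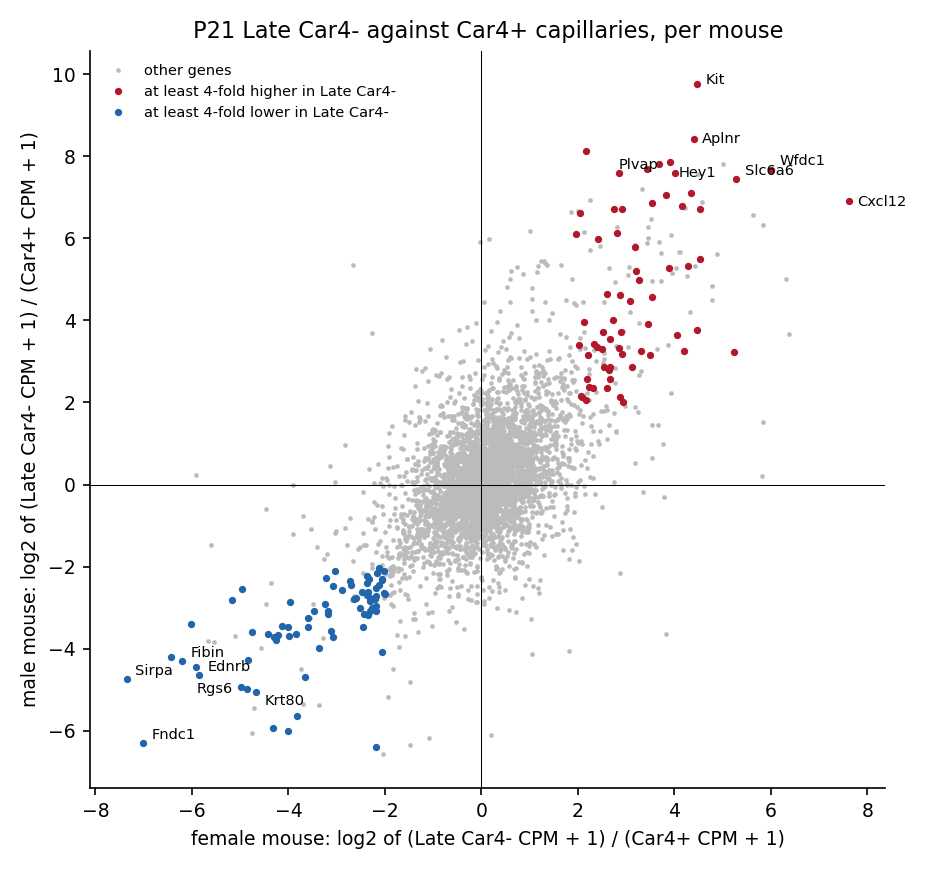
Each point is a gene with a mean of at least 50 CPM in P21 Late Car4- or Car4+ cells, placed by its log2 ratio of the 2 classes (CPM + 1) in the female (x axis) and male mouse (y axis). The 65 genes at least 4-fold higher and the 73 at least 4-fold lower are coloured, and grey points beyond 4-fold in both mice had a read in too few cells of the higher class to be counted.

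The level of the genes in the lower class also differed between the mice. Of the 65 higher genes, 50 had more CPM in female than in male Car4+ cells, with a median of 28.0 CPM in the female and 9.71 CPM in the male cells. Plvap, for example, had a read in 22.8% of female and 5.19% of male Car4+ cells. Of the 73 lower genes, 39 had more CPM in male than in female Late Car4- cells, with medians of 21.4 CPM in the female and 21.8 CPM in the male mouse.

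Against venous cells 90 of 3037 genes were higher in Late Car4- cells by the same rule (2.96%) and 118 were lower (3.89%). The venous class held 13 cells in the female and 4 in the male mouse, so the male values rest on few cells. With the male mouse alone 1409 genes passed the limits, with the female mouse alone 591 and with both 208. With CD31-gate cells alone the balance turned, with 128 genes higher and 93 lower, and 146 of the 208 were shared. Over 6510 genes the median log2 ratio was 0.08 in the female but 2.11 in the male mouse. Of the 4 markers, 0 passed the limit here. Gpihbp1 stood at 932 and 934 CPM in venous cells, and Plvap at 2778 and 2606 CPM, slightly above Late Car4- cells of both mice.

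Car4 led the higher side against venous cells, at least 1456-fold in each mouse when 0 reads were set to 3 reads per mouse. Sparcl1, which encodes a matricellular protein of capillary and arterial endothelium, stood at 587 and 474 CPM in Late Car4- cells against 0.782 CPM (11 reads) and 0 reads. Dll4, the Notch ligand, stood at 195 and 134 CPM against 2 reads in the female and 0 in the male venous cells, and Adgrl3, an adhesion receptor, at 96.4 and 76.5 CPM against 0 reads in both. Tspan15 and Pcsk5 completed these 6 genes, each with 0 to 3 venous reads per mouse. Dll4, Gja4, Hey1, Sox17 and Cxcl12 made 5 of 12 arterial genes higher than in venous cells, against 2.96% of all genes. Bmx, Mgp, Ltbp4 and Fbln5, genes of large arteries and of the elastic fibre, were lower, against 3.89% of all genes. The median log2 ratio of the 12 was 2.03 in the female mouse, against 0.08 over 6510 genes. In the male mouse it was 2.19, near the 2.11 of all these genes.

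Of the 12 venous genes 7 were lower in Late Car4- than in venous cells, again by construction of that list. Slc6a2, the noradrenaline transporter that marks lung veins, stood at 13.9 and 7.93 CPM in Late Car4- cells against 1815 and 2229 CPM. Vwf, the clotting factor stored in endothelial granules, stood at 123 and 233 CPM against 5772 and 4752 CPM. Cytl1, a secreted protein, stood at 0.812 and 0.0988 CPM against 843 and 2221 CPM, and Cpe, a carboxypeptidase, at 4.08 and 2.83 CPM against 1335 and 2468 CPM. Pgm5, Elovl7, Pla2g4a and Bst1 were the other leading genes on this side, with 3 to 5 Late Car4- reads per mouse for Pgm5 and Elovl7. Vcam1 and Icam1, which hold leukocytes at the vessel wall, were lower too: Vcam1 stood at 11.5 and 4.11 CPM against 882 and 1228 CPM, and Icam1 at 114 and 94.7 CPM against 1149 and 1035 CPM in venous and 592 and 584 CPM in Car4+ cells. Ptgs1 and Ptgis, enzymes of prostacyclin synthesis, stood at 27.5 and 32.1 CPM and at 8.72 and 5.34 CPM, against 617 and 688 CPM and 96.4 and 127 CPM in venous cells.

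The 2 P21 mice were close for most genes of the class. Of 3141 genes with a mean of at least 50 CPM and a read in at least 25% of cells of either mouse, 2831 (90.1%) lay within 2-fold of each other, and 13 were more than 4-fold apart. Cyp26b1, which encodes an enzyme that breaks down retinoic acid, was the most different after Xist and was chosen for description after its values were seen. It stood at 10.8 CPM in the female and 703 CPM in the male mouse, with a read in 20 of 268 and 197 of 265 Late Car4- cells. In the male mouse it was high in both gates, at 617 CPM in CD31-gate and 830 CPM in mesench-gate cells, which were sequenced in different runs. In the female mouse it was low in both, at 11.9 and 6.28 CPM.

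The other P21 classes of the male mouse split as well. Cyp26b1 had a read in 3 of 3 Early Car4- and 3 of 4 venous cells of the male mouse, and in 1 of 4 and 4 of 13 of the female mouse. Car4+ capillaries were low in both, with 8 of 77 and 1 of 57 cells. At younger ages in Early Car4- cells, 27.5% of cells had a read in the female and in the male mouse at P1, and 11.7% and 13.2% at P7. In younger Late Car4- cells it had a read in 1 of 12 cells of the E18.5 female, 2 of 21 of the P1 female and 1 of 44 of the P7 female mouse, and the P1 level of 199 CPM was above that of the P21 female. Lpin2 and Hist1h1e went the other way in Late Car4- cells, with 127 against 14 CPM and 97.7 against 5.70 CPM in the female and the male mouse. With 1 mouse of each sex, sex could not be tested.

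**Figure D3:**
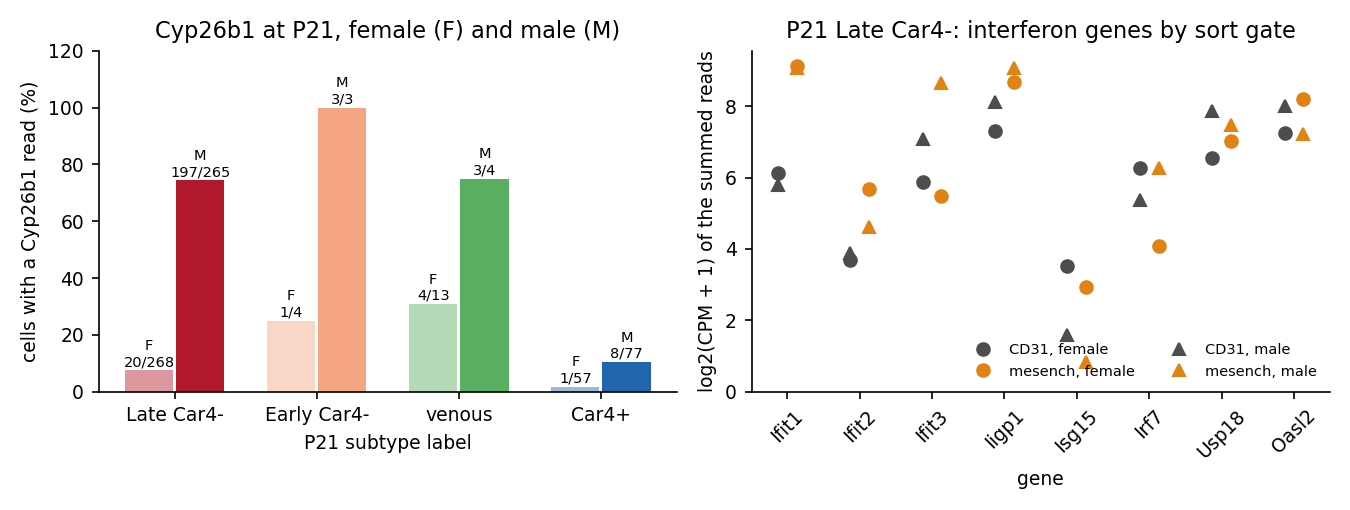
Left, the percentage of P21 cells with a Cyp26b1 read (y axis, from 0) by subtype label (x axis), pale bars for the female and full bars for the male mouse, with the number of cells; Late Car4- cells reach 7.46% and 74.3%. Right, log2(CPM + 1) of 7 interferon-stimulated genes and Iigp1 in P21 Late Car4- cells by sort gate and mouse; Ifit1 is higher in the mesench-gate cells of both mice, and Irf7, Usp18 and Oasl2 move in opposite directions in the 2 mice.

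Sort gates could be compared within the label, since each P21 mouse gave Late Car4- cells of the CD31 and mesench gates. The gate was not used by the label, and edgeR's quasi-likelihood test with the mouse as block was used on summed counts. Gate and sequencing run changed together and cannot be told apart. Of 12371 genes, 1 was called at an adjusted p under 0.05, higher in the mesench gate (0.00808%), and 0 were called lower, with 750 genes (6.06%) at an unadjusted p under 0.05.

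The called gene was Ifit1, an interferon-induced protein that binds foreign RNA, which is named because it was the one call although few cells had a read. It stood at 69.4 and 54.4 CPM in CD31-gate cells of the female and male mouse and at 563 and 539 CPM in mesench-gate cells, higher in 2 of 2 mice. The log2 change was 3.42 (SE 0.48), and its adjusted p by edgeR was 0.00122. The difference rested on few cells. A read was present in 5 of 50 female and 14 of 82 male mesench-gate cells, and in 33 of 217 and 22 of 182 CD31-gate cells, and 5 cells held 100% of the female and 89.3% of the male mesench-gate reads. With each cell thinned to 50000 reads the shares of cells with a read were 12% and 11% in the CD31 gate and 10% and 12.2% in the mesench gate, and the adjusted p was 0.999. Without the mouse as block it was 0.611.

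The promoter of Ifit1 is shown because it was the one gene called. The 250 bases before its start are from RefSeq (GRCm38.p6, chr19:34640639-34640888, plus strand). Capitals mark the core of an interferon-stimulated response element, a pair of GAAA units parted by any 2 bases, searched on both strands; here both matches read on the minus strand, and 2.98% of 32851 promoters of the same length hold the motif.
Ifit1: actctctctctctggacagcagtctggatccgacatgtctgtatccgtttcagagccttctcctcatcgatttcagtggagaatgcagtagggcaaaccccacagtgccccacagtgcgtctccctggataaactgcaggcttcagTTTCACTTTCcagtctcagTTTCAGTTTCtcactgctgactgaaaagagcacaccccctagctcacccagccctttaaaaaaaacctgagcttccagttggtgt

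Other interferon genes were higher in the mesench gate of both mice, of neither or of 1. Of 13 listed interferon-stimulated genes tested, Ifit1 and Ifit2 were higher in the mesench gate of both mice and 4 were lower in both, against 16.3% and 37.6% of all genes. Ifi44 and Iigp1 were not on this list, and Ifi44 was chosen after its values were seen. Ifi44 stood at 32.6 and 69.7 CPM in CD31-gate and at 211 and 214 CPM in mesench-gate cells, higher in both mice. It also rested on few cells: 5 cells held 99.9% and 91.3% of its mesench-gate reads. At 50000 reads, 14.7% and 13.2% of CD31-gate and 12% and 13.4% of mesench-gate cells had an Ifi44 read. Iigp1 stood at 156 and 276 CPM in CD31-gate and at 411 and 538 CPM in mesench-gate cells, higher in both mice. Ifit3 stood at 57.9 and 133 CPM in CD31-gate and at 43.5 and 398 CPM in mesench-gate cells, Irf7 at 75.8 and 40.6 CPM and at 15.8 and 75.7 CPM. The genes were read in a minority of cells: at 50000 reads, 71 of 268 female and 42 of 265 male Late Car4- cells had a read of at least 5 of the 14. The 4 markers did not pass the test, and Gpihbp1 stood at 3015 and 2737 CPM in CD31-gate and at 1414 and 2793 CPM in mesench-gate cells. Beside these values, the non-coding gene CT010467.1 took a median of 5.69% of reads in female CD31-gate cells and 17.4% in female mesench-gate cells, against 8.23% and 6.71% in the male mouse, and its part in the gate values was not tested.

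Cells of the class varied in how many genes were detected. At 50000 reads per cell the median was 2078.5 genes in the female and 1163 in the male mouse, with quartiles of 1373 and 2720 and of 733 and 1988 genes. Car4+ capillaries of the same mice had medians of 2533 and 1474. Among the CD31-gate Late Car4- cells with the fewest genes (the lowest 25%, medians of 1135 and 603.5 genes), Plvap had a read in 74.5% of female and 32.6% of male cells and Aplnr in 25.5% and 23.9%. In the 25% with the most genes Plvap had a read in 98.1% and 100% and Aplnr in 90.7% and 76.1%. Gpihbp1 went the other way in level: it stood at 4786 and 4014 CPM in the lowest and at 2021 and 2029 CPM in the highest of these groups, and Malat1, a nuclear non-coding RNA, at 51616 and 30776 CPM and at 14534 and 10326 CPM.

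The spread of single genes between CD31-gate cells was measured as variance over mean at 50000 reads, relative to the 100 genes nearest in mean, in each of the 2 mice. Over 5767 genes the 12 with the highest lower value of both mice were CT010467.1 (11.5 and 12 times the neighbours), Malat1 (10.9 and 5.52), Zfp369, Inmt, Klhl42, Zkscan17, Gnptab, Thnsl2, Pik3c3, Depp1, Gstk1 and Phf6. CT010467.1 and Malat1 were present in nearly every cell, and the other 10 were read in 1.65 to 21.4% of cells. Inmt, an enzyme that methylates amines, reached 18720 and 16360 CPM in single cells and had a read in 11.1% and 14.3% of them. The 2 genes read in nearly every cell, CT010467.1 and Malat1, had a Spearman coefficient of 0.034 over female and -0.42 over male cells. Of all pairs among the 12, the pair whose smaller coefficient of both mice was the highest, CT010467.1 and Depp1, had Spearman coefficients of 0.12 over 217 female and 0.14 over 182 male cells, which share their mouse and run.

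Of 16 ranked immediate early genes, which rise within minutes of stimulation, 9 spread more than their neighbours in both mice, against 29.7% of all ranked genes. Jun (1.25 and 0.55) and Junb (1.40 and 0.84) did so in the female mouse alone. Atf3 spread 2.18 and 2.34 times as much as its neighbours, Fos 4.93 and 1.97 times and Egr1 1.96 and 1.67 times. Fos had a read in 51.2% and 47.8% of cells. Car4 spread 1.74 and 2.11 times as much as its neighbours, and the marker Gpihbp1 1.98 and 1.43 times. The other markers, Plvap (1.37 and 1.08), Cyp4b1 (1.19 and 0.99) and Aplnr (0.66 and 1.14), lay nearer to their neighbours.

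The 89 cells of younger groups with the Late Car4- label had fewer reads and fewer detected genes per cell than the comparison class of the same mouse, in the 3 females that held most of them. Median reads per cell were 285249 against 649272 at E18.5, 273524 against 425268 at P1 and 478914 against 950650 at P7. At 50000 reads per cell the 21 Late Car4- cells of the P1 female mouse had a median of 927 genes against 3177 in 159 Early Car4- cells, and 18 of the 21 lay below the 5th percentile of those cells. At P7 the median was 765.5 genes in 44 Late against 2369 in 162 Early Car4- cells of the female mouse, with 40 of 44 below the 5th percentile. At E18.5 it was 867 genes in 12 cells against 2550 in 132 nonproliferative embryonic cells, with 12 of 12 below. The males contributed 2 such cells at P1 and 2 at P7, and the hyperoxia mice 2 and 6. The part of depth and low gene detection in the label was not tested.

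**Figure D4:**
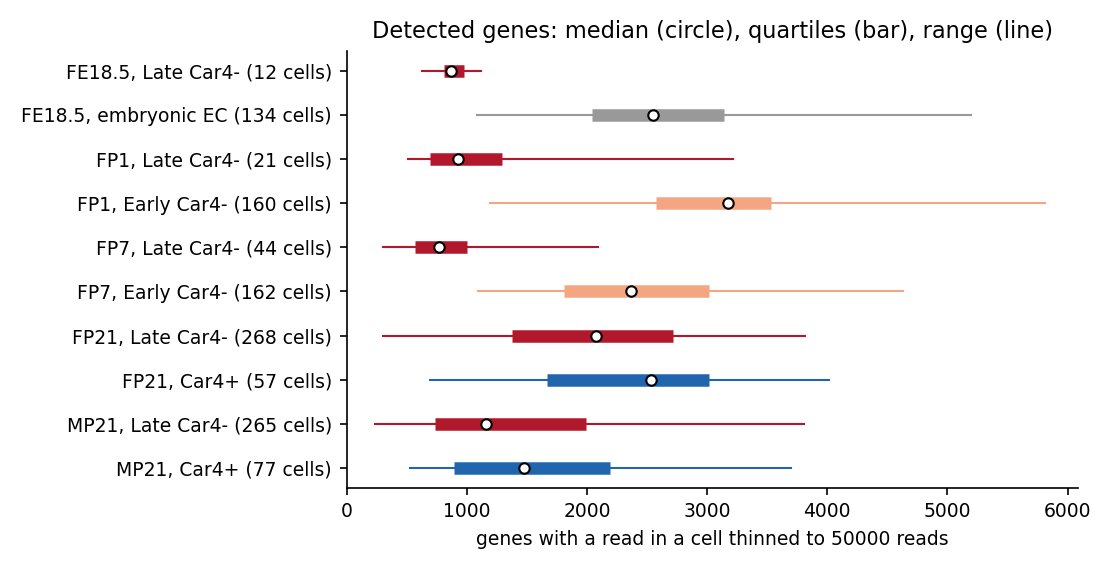
Genes with a read per cell after thinning to 50000 reads (x axis) by mouse and subtype label (y axis): circles are medians, thick bars quartiles and thin lines the range over cells. Late Car4- cells of the E18.5, P1 and P7 female mice have medians of 867, 927 and 765.5 genes, below the comparison class of the same mouse, and the P21 medians are 2078.5 and 1163.

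Endothelial genes were nevertheless present in these cells. Pecam1, which encodes CD31, stood at 1808, 1672 and 1265 CPM in Late Car4- cells of the E18.5, P1 and P7 female mice against 1366 and 1304 CPM at P21. Gpihbp1 stood at 6564, 3602 and 1875 CPM. Plvap stood at 245, 864 and 654 CPM and Cyp4b1 at 236, 257 and 427 CPM, all below both P21 mice, and Aplnr at 373, 160 and 510 CPM. Of the 10 leukocyte markers 7 to 9 were at 0 in each of these 3 mice, and the leukocyte sum was 61.1 CPM or less. Proliferation genes summed to 194, 5.0 and 718 CPM, and erythroid and platelet genes to 0.349, 413 and 0.214 CPM, and their part in the values of these cells was not tested. Lymphatic markers summed to 1214, 2143 and 549 CPM, against 1024 and 934 CPM at P21. Prox1, which defines the lymphatic lineage, was at 0 in all 3 and at 7.56 and 0.486 CPM at P21.

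Age within the label was tested with edgeR's quasi-likelihood test, the 2 P21 mice against the 3 younger normal-air mice with at least 8 Late Car4- cells, which were all female and 1 of each age. The 3 younger ages were taken as 1 group, so the spread behind these p-values mixes differences between ages with differences between mice. Among the P21 mice it also holds the difference between the female and the male. Of 11679 genes 0 were called at an adjusted p under 0.05 in either direction (0%), and 2007 (17.2%) had an unadjusted p under 0.05. On the same groups 989 genes passed with DESeq2 (928 higher at P21, 61 lower) and 1875 with limma (1874 higher, 1 lower), so the count depends on the tool. As a description, 4217 genes (36.1%) lay higher in both P21 mice than in each younger mouse and 304 (2.6%) lower. The younger cells had few detected genes, and the part of this in the excess of higher genes was not tested.

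Of 14 genes that present peptides to T cells on class I molecules, 13 lay above each younger mouse, against 36.1% of all genes, and 0 of them passed the test. H2-K1, a class I heavy chain, stood at 315, 101 and 543 CPM at E18.5, P1 and P7 and at 2358 and 1905 CPM at P21 (log2 change 2.10, SE 0.80, adjusted p 0.176 by edgeR). An H2-K1 read was present in 1 of 12 cells at E18.5, 6 of 21 at P1 and 18 of 44 at P7, so the E18.5 value came from 1 cell. H2-D1 stood at 258, 535 and 1499 CPM and at 4194 and 2958 CPM, and B2m, the light chain, at 909, 1779 and 1621 CPM and at 3620 and 4435 CPM. At E18.5 a read was present in 2 of 12 cells for H2-D1 and in 7 of 12 for B2m. For these 3 genes the P21 mice and the younger mice did not overlap. The higher level in the P21 mice was not particular to this label. H2-K1 in Car4+ capillaries stood at 320 and 657 CPM in the P1 and P7 females and at 1326 and 1473 CPM at P21. In venous cells it stood at 398 and 802 CPM and at 1957 and 1921 CPM. Early Car4- cells of the P1 and P7 females had H2-D1 at 1555 and 2089 CPM, above Late Car4- cells of the same mice. Their B2m, at 1699 and 1392 CPM, was below. Heavy chain genes are near-identical in sequence, so reads may be divided unevenly among them.

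Class I levels were also compared by the number of detected genes. The P21 Late Car4- cells with up to 1500 genes at 50000 reads, 81 of the female and 155 of the male mouse, had H2-K1 at 2355 and 1708 CPM, and those with more genes had 2359 and 2164 CPM. In Early Car4- cells of the P1 and P7 female mice, with many detected genes, H2-K1 stood at 443 and 998 CPM, below both P21 mice, and the P1 value lay within the range of the younger Late Car4- cells. Of 8 class II genes 7 were tested and 0 called by edgeR. All 7 lay above each younger mouse, but they passed the filter on low counts through the P21 mice, so this count supports nothing. At P21 they ranged in the female from 1.97 CPM for Ciita, the regulator of class II genes, to the level of H2-Ab1, and in the male from 1.33 CPM for H2-DMb1. H2-Ab1 stood at 43.0 and 65.0 CPM at P21, with a read in 10.1% and 7.17% of cells, and the 89 younger cells, in which few genes were detected, held 0 reads.

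Mest, an imprinted gene active in growing tissue, was the one of 9 tested imprinted growth genes that lay lower in both P21 mice than in each younger mouse (against 2.6% of all genes). It stood at 570, 598 and 542 CPM at E18.5, P1 and P7 and at 52.3 and 32.3 CPM at P21, with an adjusted p of 0.0921 by edgeR (log2 change -4.37, SE 1.05). P21 Late Car4- cells with up to 1500 genes had 14.9 and 13 CPM, so the P21 level was low in them as well. Early Car4- cells of the same P1 and P7 mice stood at 909 and 1201 CPM. Car4+ capillaries stood at 1442 and 1964 CPM in those mice and at 241 and 259 CPM at P21. Venous cells, few at P21, stood at 1290 and 1323 CPM and at 25.3 and 153 CPM. Mest was thus lower at P21 in these 2 classes as well. H19, another imprinted gene, stood at 114, 307 and 1.59 CPM and at 6.67 and 0.297 CPM at P21, so its groups overlapped.

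Hspa1a, the stress-inducible Hsp70 chaperone, had the smallest unadjusted p in the age test (adjusted p 0.0921 by edgeR). It stood at 483 and 718 CPM in P21 Late Car4- cells, with a read in 92 of 268 and 144 of 265 cells. The 89 younger Late Car4- cells, in which few genes were detected, held 0 reads among 38953769. With a floor of 3 reads per mouse in the E18.5, P1 and P7 females, the P21 level was at least 923-fold higher, a size set by that floor. Hspa1a passed the filter on low counts through the P21 mice, so its p and this fold support nothing. Other P21 classes held Hspa1a too: P21 Car4+ capillaries stood at 961 and 539 CPM and P21 venous cells at 241 and 238 CPM, while Early Car4- cells of the P1 and P7 female mice stood at 2.61 and 1.27 CPM. Of 14 heat shock genes, 4 lay above the younger mice (against 36.1%), Hspa5, Dnaja1, Hsph1 and Hspa1a, and Hspa4 lay below. Of 19 immediate early genes tested, 8 lay above.

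The promoters of Hspa1a, which had the smallest unadjusted p in the age test, and of its near-copy Hspa1b are shown together. Over the 250 bases before the start they agree at 247 positions (98.8%), from RefSeq on GRCm38.p6, minus strand, chr17:34972157-34972406 and chr17:34959239-34959488. These bases are not part of the RNA, and whether the 2 genes share reads was not tested. Capitals mark GAANNTTC, a pair of heat shock element units that reads the same on both strands, held by 6.69% of 32851 promoters.
Hspa1a: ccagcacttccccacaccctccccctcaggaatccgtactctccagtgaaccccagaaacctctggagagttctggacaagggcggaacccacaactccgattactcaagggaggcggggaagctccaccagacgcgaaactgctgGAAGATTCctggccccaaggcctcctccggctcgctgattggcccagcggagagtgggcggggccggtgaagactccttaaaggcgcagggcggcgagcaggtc
Hspa1b: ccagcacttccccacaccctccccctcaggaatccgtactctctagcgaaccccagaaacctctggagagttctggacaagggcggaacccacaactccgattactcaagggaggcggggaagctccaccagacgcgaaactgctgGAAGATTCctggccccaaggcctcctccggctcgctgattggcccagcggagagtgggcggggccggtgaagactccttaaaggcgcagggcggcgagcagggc

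Hspa1b stood at 58.0 and 88.4 CPM in P21 Late Car4- cells and at 121, 0 and 0.0429 CPM at E18.5, P1 and P7. The E18.5 value came from 1 of 12 cells, so the 2 copies did not show the same pattern over the younger mice.

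**Figure D5:**
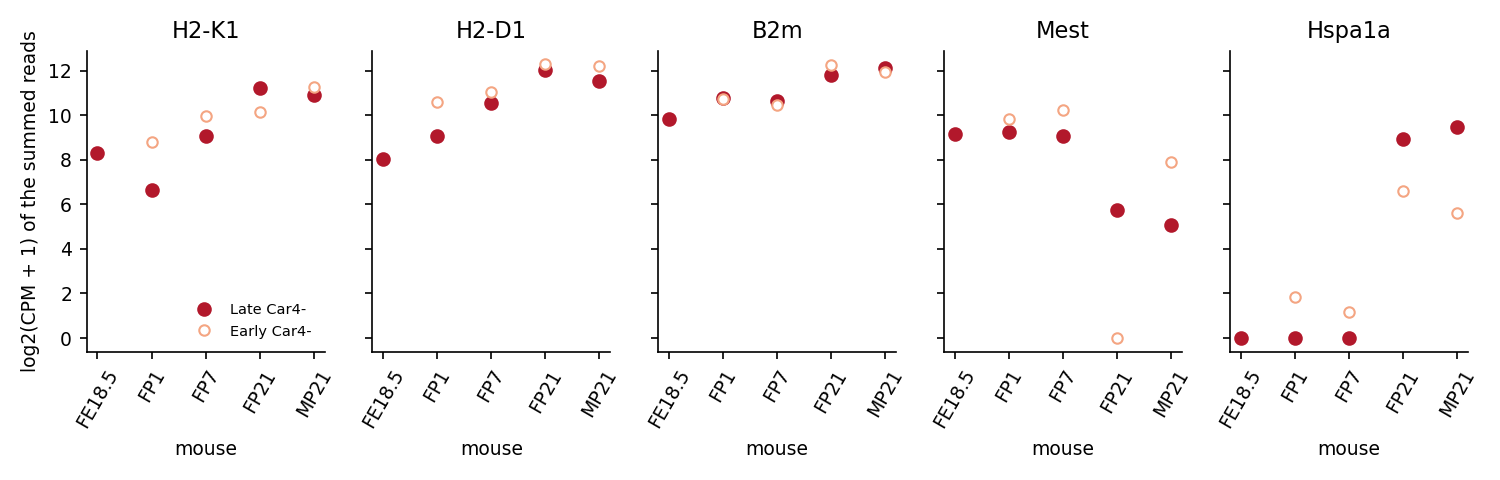
Levels of 5 genes as log2(CPM + 1) of summed reads (y axis) in Late Car4- (filled) and Early Car4- cells (open) of the 3 younger female mice and the 2 P21 mice (x axis), with classes of under 3 cells left out. H2-K1, H2-D1 and B2m are higher and Mest is lower in P21 Late Car4- cells than in each younger mouse, and Hspa1a has 0 reads in the younger Late Car4- cells.

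Interferon-stimulated genes lay above each younger mouse for 10 of 13 tested (against 36.1% of genes), again with 0 passing the test. Some of them, such as Irf7, were near 0 in younger mice and could pass the filter on low counts through the P21 mice. This count therefore supports nothing. Oasl2, an antiviral protein of the oligoadenylate synthetase family, stood at 0.349, 23.1 and 73.8 CPM and at 174 and 212 CPM at P21, and Irf7, a transcription factor of this response, at 0, 0 and 11.1 CPM and at 66.3 and 54.9 CPM. Of the genes higher in P21 Late Car4- than in Car4+ cells, some lay above each younger mouse and others overlapped with them. Plvap and Iigp1 lay above, Iigp1 with 0, 87.5 and 38.6 CPM against 198 and 383 CPM at P21. Cxcl12 stood at 417, 1334 and 951 CPM against 966 and 716 CPM at P21, Kit at 355, 201 and 949 CPM against 818 and 1040 CPM, and Hey1 at 0.349, 244 and 361 CPM against 249 and 230 CPM, with overlap in each. Cd36 stood at 374, 828 and 1234 CPM and at 2949 and 3273 CPM at P21, above each younger mouse.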

How the data were processed

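Single cells were plate-sorted, and the authors deposited raw read counts (whole numbers, no molecular identifiers) of 18072 genes in each cell. STAR 2.5.2b, HTSeq 0.10 and the build GRCh38 are named in the submitters' processing notes; GRCh38 is a human build and the cells are from mice, so the build behind the counts is unclear here. Gene positions came from a GRCm38 annotation. The deposited counts held a median of 89.5% of the reads per cell that the labels give as coverage.

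Counts were summed per mouse and label, and CPM computed over all genes. Late Car4- cells were taken by the authors' subtype label. The members, markers and gene lists were chosen with earlier results of these data known. Named genes were the markers, up to 15 per direction against Car4+ and 6 against venous cells ordered by the smaller of both mice's folds, called genes with non-overlapping groups, the 12 most variable genes and members of the described lists; others are said to be chosen after their values were seen. Age and gate were tested with edgeR 4.0.16 (quasi-likelihood, Benjamini-Hochberg adjusted p under 0.05) in R 4.3.3, the gate with the mouse as block, since both gates' cells came from the same mouse. The fit for age used mice with at least 8 Late Car4- cells. The test scripts were tested on simulated data. Alternatives were DESeq2 1.42.0, limma 3.58.1, other scaling, no filter, thinning to 50000 reads per cell, other fold limits and leaving out each mouse. Cells were thinned with numpy 2.4.6. No doublet caller was run. Nothing says how animals were pooled, so each mouse named in the labels was taken as 1 animal.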

Additional observations from a re-analysis of the deposited data

How the results depend on the processing

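For age within the label, edgeR called 0 genes, also with another scaling, with thinned cells, with CD31-gate cells, with mice of at least 20 cells and with each mouse left out (0 to 0 genes). DESeq2 called 989 (928 higher at P21, 61 lower), limma 1875 (1874 higher, 1 lower) and edgeR with no filter on low counts 1. With age as a factor, P21 against the mean of the younger ages gave 7571 and P21 against P7 gave 3834; in those fits each younger age has 1 mouse and the spread comes from the 2 P21 mice alone. An alternative added after seeing the data, P21 cells with up to 1500 genes, gave 0. No paired analysis was possible for age because the ages came from different mice. For the sort gate, edgeR called 1 gene, higher in the mesench gate, DESeq2 478 (127 higher, 351 lower), limma 4 (0 higher, 4 lower, none shared with edgeR), edgeR with no filter 5, with thinned cells 0 and with no replicate block 0; leaving out a mouse leaves 1 pair and no test. Against Car4+ capillaries 138 genes passed the limits, 375 at a fold of at least 2 and 1606 with no minimum level (1299 higher, 307 lower against 65 and 73), and 259 to 273 with a mouse left out. Against venous cells 208 passed, 483 at a fold of at least 2 and 2293 with no minimum level (2110 higher, 183 lower against 90 and 118), and 591 to 1409 with a mouse left out. Cells with at least 1500 genes, also added after seeing the data, gave 180 (102 higher, 78 lower) and 286 (182 higher, 104 lower). Of the 12 most variable genes, 2 were among the first 12 in mesench-gate cells, 7 at 20000 reads and 5 with a mean of at least 5 reads. No ranked gene past the fold limit, and no gene followed across the test settings, changed direction. The direction of markers not past the limit, and of the other named genes, was not compared. Over the alternatives, the mean log2 ratios against Car4+ cells moved beyond the SD of the 2 mice 29 times and stayed within it 259 times. Against venous cells they moved 31 times and stayed within it 113 times. The cause of these shifts was not tested. With 2 mice per group, few cells in the venous and younger classes and reads that are not independent molecules, small differences were not detectable.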
